A study of Mus musculus with 24 samples.

Results

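Expression of 7 glucocorticoid-responsive genes was examined in mouse whole blood: Nr3c1, Tsc22d3, Fkbp5, Zbtb16, Sgk1, Klf9 and Ddit4. They were chosen by name, as the receptor gene and 6 genes known to respond to the hormone, and were found as all probes that carry 1 of these gene names. This gave 8 probes (2 for Nr3c1 and 1 for each of the others) among the 39429 probes and 29742 gene names on the array. All mice were male C57BL/6J and were held in a restraint holder without anaesthesia, also when they received the sham exposure. Young mice were 2 months old and old mice 21 months old. Each age had 6 unirradiated (sham) mice and 6 mice given 4 Gy of x-rays to the whole body, and blood was drawn 24 h later by cardiac puncture under CO2 euthanasia. The 4 groups are called young unirradiated, young irradiated, old unirradiated and old irradiated, and each of the 24 arrays holds the globin-reduced RNA of 1 mouse.

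Glucocorticoids such as corticosterone are released by the adrenal cortex under the control of the hypothalamus and pituitary, with a daily rhythm and after stress. They enter the cell and bind the glucocorticoid receptor, which is held in the cytoplasm by heat shock proteins and co-chaperones. The bound receptor moves to the nucleus, where it activates genes through inverted repeats known as glucocorticoid response elements and restrains inflammatory genes driven by NF-kB and AP-1. In blood the hormone is known for lowering the number of circulating lymphocytes and raising that of neutrophils.

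Values are log2 signals with the median of each array subtracted, so that 0 is the median probe of that array and a difference of 1 is a doubling; they are called log2 levels. Median signals ranged from 8.66 to 44.8 between arrays, and 43.9% to 64.4% of spots were well above background. Old irradiated replicates 4 and 6 stood apart, with the lowest median signals (8.66 and 8.84), the lowest mean correlation with their own group (0.828 and 0.823, against 0.882 to 0.904 for the other 4), monocyte marker levels of 5.28 and 5.21 against 7.16 to 7.72, and red cell marker levels of 11.4 and 11.6 against 7.59 to 8.83. They were the lowest or second-lowest arrays of their group for all 7 genes, and results that rest on them are given with and without them. Blood carried its defining markers, with 10 of 10 B cell, 12 of 12 T cell and 8 of 8 platelet markers well above background in every young unirradiated mouse. Hepatocyte markers (24 of 25 on the array, albumin and fibrinogen chains among them) had a mean log2 level over 5 on 7 arrays: young unirradiated replicate 5, young irradiated replicates 2, 4 and 5, and old irradiated replicates 2, 3 and 5. In the old unirradiated mice that level was -0.93 to -0.34. Young irradiated replicates 2 and 5, and old unirradiated replicates 1 and 6, were very alike (robust SD of their differences 0.144 and 0.147). The SD of repeat spots within an array was 0.0588 to 0.107. That is a spread of single spots and not of differences, so it cannot show that these arrays differ by more than repeat measurement. These values do not settle whether the alike arrays come from separate mice. Each was kept as the sample its label names, and averaging each pair changed no count of members called.

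The hormone's DNA target is shown first for the members for which a promoter sequence was at hand. The RefSeq promoter windows (GRCm38.p6, 250 bases before to 50 after each start) held 12 windows of 5 of the 7 genes: 6 of Sgk1, 3 of Tsc22d3 and 1 each of Fkbp5, Klf9 and Ddit4. The letters searched were AGAACA, 3 free bases and TGTTCT, an inverted repeat and so the same on both strands, and its 6-base arm alone on either strand, which the full element also contains. The full element was in 1 member window, at a start site of Sgk1, and in 0.00913% of all 32851 windows (3 windows). It is shown here because it is the only full match among the members, with the element in capitals at chr10:21993701-21993715, 189 bases before the start, on the plus strand.

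Sgk1 chr10:21993640-21993889: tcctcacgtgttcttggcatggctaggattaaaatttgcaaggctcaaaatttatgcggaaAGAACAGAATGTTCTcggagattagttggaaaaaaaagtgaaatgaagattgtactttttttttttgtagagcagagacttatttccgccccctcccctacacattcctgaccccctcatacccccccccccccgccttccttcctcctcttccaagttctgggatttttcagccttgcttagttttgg

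The arm alone was in 4 of the 12 member windows, 3 of Sgk1 and 1 of Tsc22d3, against 19% of all windows. The Sgk1 stretch above also holds a further arm outside the full element, left in lower case. It is TGTTCT at chr10:21993648-21993653, 242 bases before the start. The arms at the other start sites are given with up to 10 bases on each side, with the arm in capitals.
Sgk1 chr10:21881979-21882004, plus strand: gggaatccgtTGTTCTgtgttttctg
Sgk1 chr10:21992200-21992222, plus strand: agtgggactcAGAACAgaaaggc
Tsc22d3 chrX:140600692-140600717, minus strand: gcattcgacaTGTTCTaagttctgag
These arms lie 195, 13 and 185 bases before their starts. The windows of Fkbp5, Klf9 and Ddit4 did not hold these letters. A match is a description of the letters and not a measured binding site.

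The levels of each gene in the 24 mice are set out by group. Nr3c1 encodes the glucocorticoid receptor itself. Its main probe (mm9 chr18:39571641-39571700, minus strand) had log2 levels of 5.02 to 5.55 (median 5.40) in young unirradiated mice, 5.40 to 5.80 (median 5.54) in young irradiated mice and 6.10 to 6.60 (median 6.31) in old unirradiated mice. In old irradiated mice it ran from 4.37 to 6.96 (median 6.18). The unirradiated old mice lay above all young mice, and the old irradiated group spanned all others because replicates 4 and 6 (4.37 and 4.49) fell below every young mouse. Without these the old irradiated mean was 6.54 ± 0.42 (SD, n = 4) in place of 5.84 ± 1.14 (SD, n = 6). The second Nr3c1 probe (chr18:39574183-39574242) was dimmer and well above background on 22 of 24 arrays, the exceptions being the same 2 mice, at -0.08 and -0.23.

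Tsc22d3 encodes GILZ, a glucocorticoid-induced leucine zipper protein that restrains NF-kB and AP-1 activity in leukocytes. Its log2 level (probe at chrX:137074094-137074153, minus strand) was 8.52 to 9.01 (median 8.72) in young unirradiated, 8.23 to 8.58 (median 8.45) in young irradiated and 9.23 to 9.93 (median 9.76) in old unirradiated mice. Old irradiated mice had 9.94, 9.82, 8.75, 7.38, 9.82 and 7.22 in replicates 1 to 6. Replicates 4 and 6 were the lowest of all 24 mice, and 3 of the other 4 lay at the top of the old unirradiated range or just above it.

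Fkbp5 encodes FKBP51, a co-chaperone that lowers the receptor's affinity for hormone and is itself induced, which closes a feedback loop. Its log2 level (chr17:28536060-28536119, minus strand) was 3.97 to 4.36 (median 4.14) in young unirradiated, 4.13 to 5.13 (median 4.26) in young irradiated, 4.47 to 5.10 (median 4.77) in old unirradiated and 4.22 to 6.05 (median 5.17) in old irradiated mice. Its variation was small: 4 arrays were 1.5-fold or more from its median, where the study's filter asks for 5, so its tests come from a fit without that filter, over 18737 genes.

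Zbtb16 encodes PLZF, a zinc finger transcription factor that is a classical glucocorticoid-induced gene and also a lineage factor of natural killer T cells and other innate-like lymphocytes. Its log2 level (chr9:48462419-48462478, minus strand) was 1.87 to 2.84 (median 2.21) in young unirradiated and 3.09 to 3.87 (median 3.23) in young irradiated mice, so the young groups did not overlap. In old unirradiated mice it was 2.44 to 3.40 (median 2.90). Old irradiated replicates 1 to 6 had 4.39, 4.24, 4.10, 2.37, 4.40 and 2.42, that is 4 mice above every unirradiated mouse of either age and replicates 4 and 6 below every old unirradiated mouse.

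Sgk1 encodes a serum- and glucocorticoid-induced kinase that acts on ion transport and cell survival. Its log2 level (chr10:21719507-21719566, plus strand) was 3.53 to 4.52 (median 3.86) in young unirradiated and 3.73 to 4.2 (median 4.03) in young irradiated mice, the narrower range lying inside the wider. Old unirradiated mice had 4.6 to 5.44 (median 5.01), above every young mouse. Old irradiated mice ran from 2.89 to 5.95 (median 5.12), and replicates 4 and 6 were the lowest of all mice.

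Klf9 encodes a Krüppel-like transcription factor that is directly induced by the receptor and, in many tissues, follows the daily rhythm of the hormone. Its log2 levels (chr19:23240410-23240469, plus strand) in young unirradiated replicates 1 to 6 were 1.52, 1.5, 1.16, 2.31, 2.30 and 1.25, and in young irradiated replicates 1 to 6 were 2.56, 4.41, 3.74, 5.38, 4.44 and 2.51. The young groups did not overlap, and the irradiated mice differed among themselves by more than the unirradiated. Old unirradiated mice had 1.85 to 2.62 (median 2.43), and old irradiated replicates 1 to 6 had 2.96, 3.99, 4.25, 1.33, 4.08 and 1.68.

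Ddit4 encodes REDD1, a stress-induced inhibitor of mTORC1 that both glucocorticoids and DNA damage are known to induce. Its log2 level (chr10:59412486-59412545, minus strand) was 6.29 to 7.4 (median 6.54) in young unirradiated, 5.90 to 7.13 (median 6.57) in young irradiated, 6.04 to 7.57 (median 7.19) in old unirradiated and 6.04 to 7.37 (median 6.55) in old irradiated mice. All 4 groups overlapped.

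**Figure D1:**
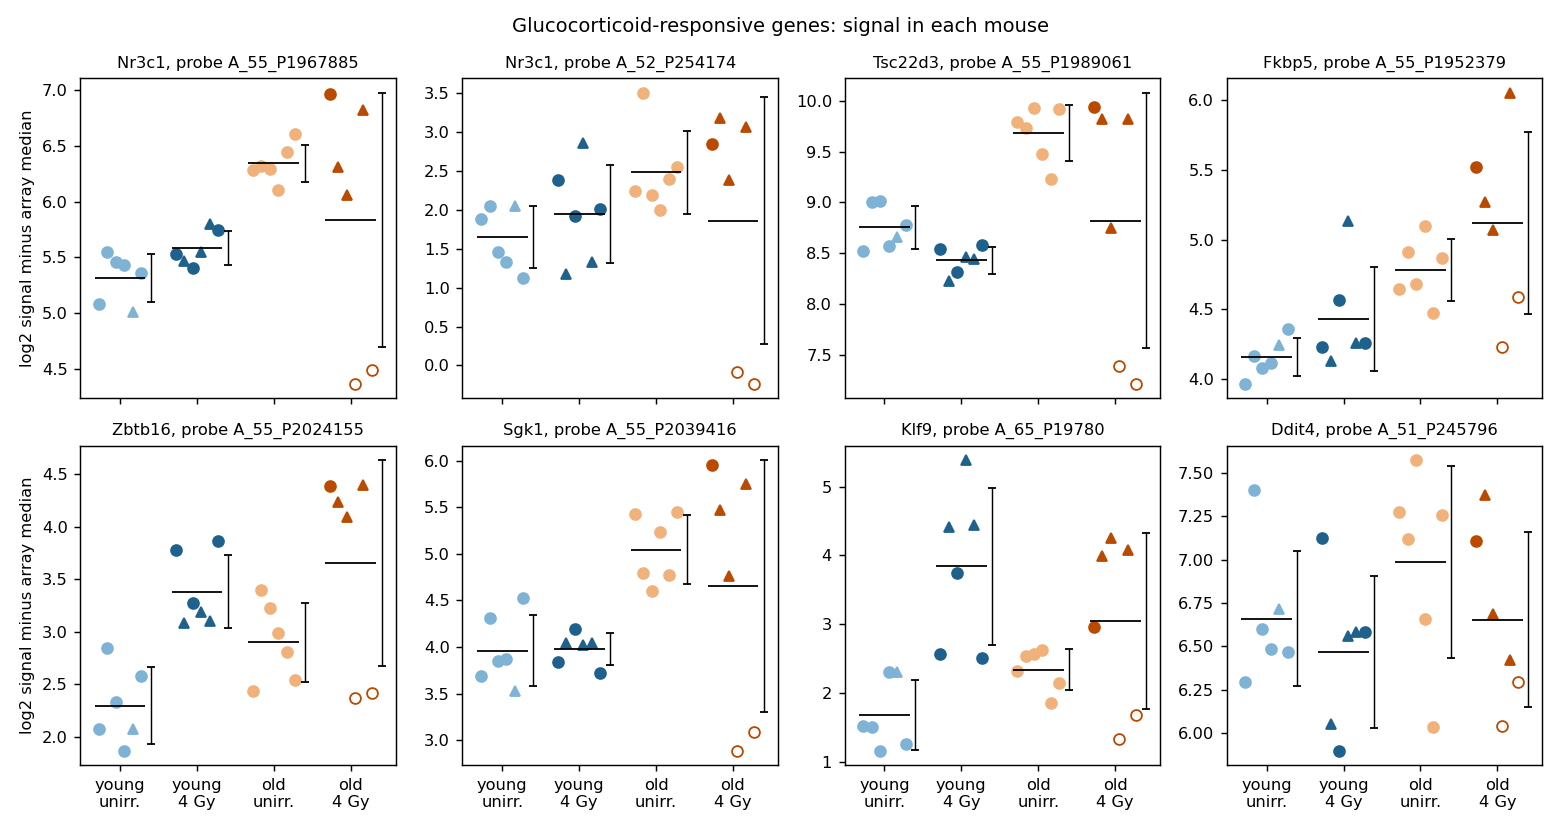
Log2 level (array median subtracted) of each gene in the 24 mice, with the mean as a line and the SD as a bar for each group of 6. Triangles mark mice with a hepatocyte marker level above 5 and open circles old irradiated replicates 4 and 6, which lie at or near the bottom of their group for every gene, Nr3c1 at 4.37 and 4.49 among them.

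The group means fell into different orders. For Nr3c1, Tsc22d3, Sgk1 and Ddit4 the old unirradiated mean was the highest, at 6.34 ± 0.17, 9.68 ± 0.28, 5.05 ± 0.37 and 6.99 ± 0.55 (SD, n = 6 each). For Fkbp5 and Zbtb16 it was the old irradiated mean (5.12 ± 0.65 and 3.65 ± 0.98), and for Klf9 the young irradiated mean (3.84 ± 1.14). Without old irradiated replicates 4 and 6 the old irradiated mean was also the highest for Nr3c1 (6.54 ± 0.42) and Sgk1 (5.48 ± 0.52, SD, n = 4 each). Neighbours in these orders were mostly close. Gaps larger than the pooled SD of the neighbours were those between the young groups for Nr3c1 (1.41 SD) and Tsc22d3 (1.83 SD), between old unirradiated and young irradiated mice for Fkbp5 (1.14 SD), between young irradiated and old unirradiated (1.33 SD) and then young unirradiated mice (1.62 SD) for Zbtb16, and between the unirradiated groups for Klf9 (1.60 SD). No neighbouring means of Sgk1 or Ddit4 differed by more than their pooled SD. These are descriptions, and the tests follow.

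The first comparison asks how the genes responded to radiation in young mice. Klf9 and Zbtb16 rose, and no other member passed the test. Klf9 rose from 1.67 ± 0.51 to 3.84 ± 1.14 (SD, n = 6 each), a log2 difference of 2.17 (SE 0.46, 95% interval 1.18 to 3.16) or 4.50-fold, with a limma adjusted p of 0.00191. Zbtb16 rose from 2.30 ± 0.36 to 3.38 ± 0.35, a log2 difference of 1.09 (SE 0.21, interval 0.64 to 1.53) or 2.12-fold, with an adjusted p of 0.000996. A gene is called here when its p is under 0.005 and its adjusted p under 0.05. Of the 6 members tested under the study's filters, 2 were called, both higher, in a comparison where 35.4% of all 17805 genes tested were called and 14.3% were called and higher. Both genes separated the groups fully, as did 24.6% of all genes. The Klf9 difference was larger than that of 97.3% of all genes and the Zbtb16 difference larger than that of 87.9%.

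The other members were not called in young mice. Nr3c1 differed by 0.27 (interval -0.04 to 0.57, adjusted p 0.137), Fkbp5 by 0.27 (-0.10 to 0.65, adjusted p 0.218) and Sgk1 by 0.02 (-0.37 to 0.41, adjusted p 0.948). Tsc22d3 differed by -0.33 (-0.62 to -0.03, adjusted p 0.0658) and Ddit4 by -0.19 (-0.70 to 0.31, adjusted p 0.529). The median over all genes was -0.20, so that the differences of Tsc22d3 and Ddit4 lay near the middle of all genes. The signs of the Tsc22d3 and Ddit4 values turned with another background correction (0.28 and 0.30), and that of Sgk1 with quantile normalization, among others.

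Both rises in young mice were seen in each fit that left out 1 mouse (Klf9 1.86 to 2.43, Zbtb16 0.99 to 1.19, called in 12 of 12). They were lost when slide was added as a block, which rests the contrast on the 1 slide that holds both groups (2 mice of each): Zbtb16 was then 1.11 (interval 0.24 to 1.97, adjusted p 0.0897) and Klf9 1.71 (interval -0.14 to 3.56, adjusted p 0.203), where 10.2% of all genes were called.

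Marker levels of blood cells moved with the same comparison. From bulk RNA alone, fewer cells of a type and less RNA per cell cannot be told apart. In the blood counts of the study, the percentage of lymphocytes fell after irradiation and that of neutrophils rose. Platelet counts did not change appreciably with radiation at either age, so the differences of platelet marker levels with radiation do not stand for platelet numbers. Several marker lists differed between the young groups. The mean level of 8 natural killer cell markers (8 of 8 on the array, 7 or 8 well above background in each mouse) ran from 3.12 to 4.54 in young unirradiated and from 3.94 to 5.95 in young irradiated mice, and irradiated replicates 1 and 6, with the highest Zbtb16 levels of the young mice (3.78 and 3.87), had the highest levels of that list (5.73 and 5.95). The same 2 mice also had the highest T cell (4.91 and 4.96), platelet (10.6 and 10.9) and neutrophil (5.21 and 5.20) levels of their group. The part of any of these cells in the Zbtb16 difference was not tested. Median levels went from 8.41 to 10.2 for 8 platelet markers, from 3.89 to 4.76 for 12 neutrophil markers and from 6.48 to 7.13 for the monocyte markers. The 12 T cell markers went the other way, from a median level of 5.54 to 4.08, and the 10 B cell markers from 5.88 to 3.49.

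The hepatocyte marker level ran from 0.12 to 5.95 in young unirradiated mice, with 10 to 24 of 24 markers well above background, and from 0.71 to 9.96 in young irradiated mice, with 13 to 24. The 3 young irradiated mice over a level of 5 had the 3 highest Klf9 levels (4.41, 5.38 and 4.44). The other 3 had 2.56, 3.74 and 2.51, all above the highest young unirradiated mouse (2.31). Resident macrophage markers (11 of 11 on the array, 7 to 11 well above background in each young mouse) separated the young groups fully, at 0.73 to 3.93 in unirradiated and 4.51 to 6.54 in irradiated mice. In irradiated replicates 1 to 6 their level was 4.51, 6.31, 5.34, 6.45, 6.54 and 4.79, and the 2 unirradiated mice with the highest Klf9 levels, replicates 4 and 5, had the highest macrophage level (3.93 in both). The part of hepatocytes and macrophages in the Klf9 difference was not tested. Without the mice over a level of 5 in either group, Klf9 differed by 1.39 (adjusted p 0.00845) and Zbtb16 by 1.30 (adjusted p 0.00242), and both were called, where 35% of all genes were called.

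**Figure D2:**
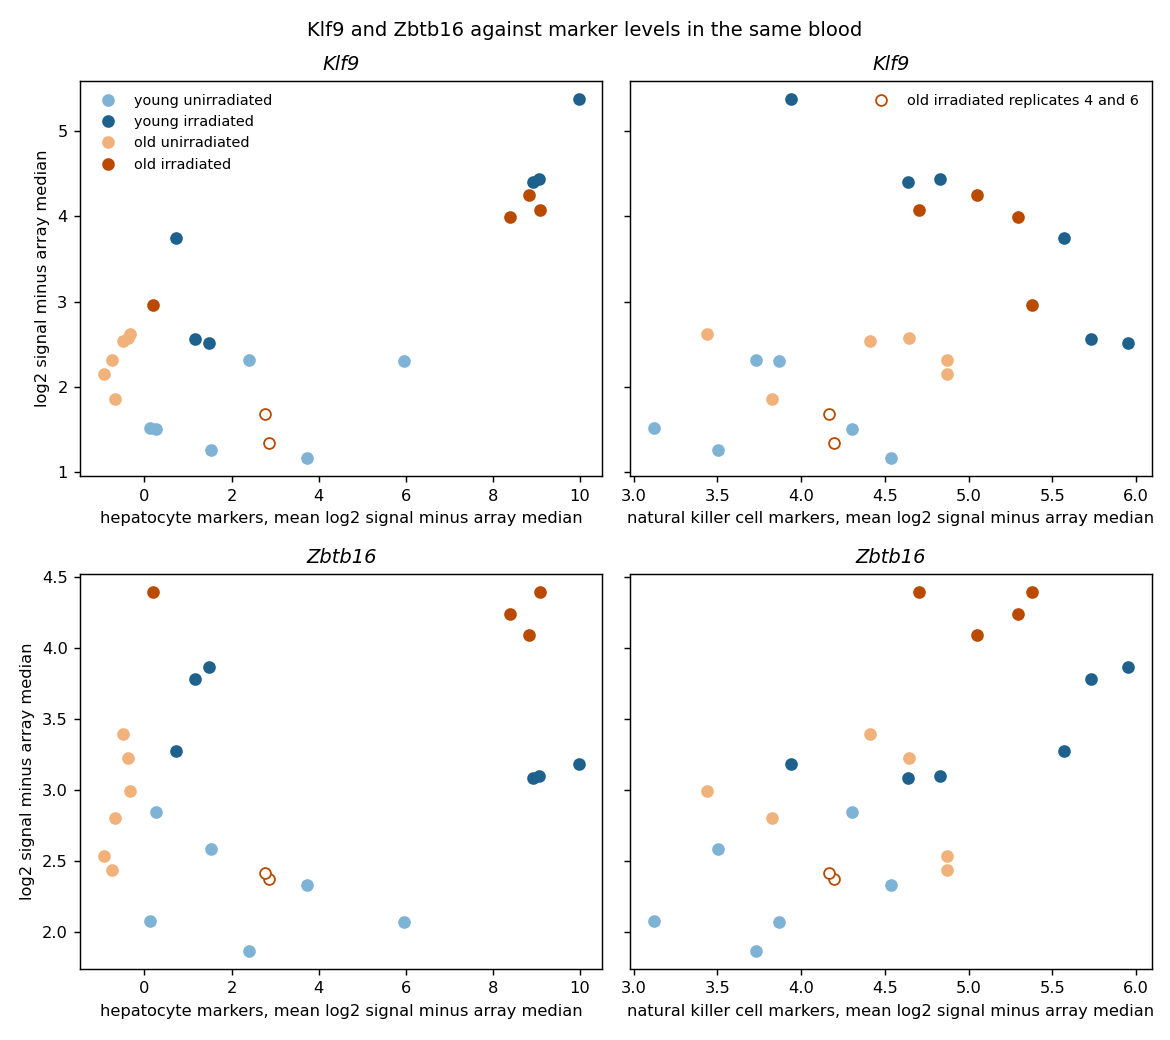
Log2 levels of Klf9 and Zbtb16 in each mouse against the mean log2 level of the hepatocyte and natural killer cell marker lists, coloured by group, with old irradiated replicates 4 and 6 open. The highest Klf9 levels (up to 5.38) lie at hepatocyte levels above 5, and the low-hepatocyte young irradiated mice still lie above the young unirradiated mice.

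The same question in old mice gave no call over all 12 mice, and calls for Klf9 and Zbtb16 without old irradiated replicates 4 and 6. Over all mice, 0 of 6 members were called by limma, against 24.9% of all genes, and 0 of the 7 had an unadjusted p under 0.05. Zbtb16 differed by 0.75 (interval -0.13 to 1.64, adjusted p 0.174), Klf9 by 0.71 (-0.36 to 1.78, adjusted p 0.285) and Fkbp5 by 0.34 (-0.30 to 0.98, adjusted p 0.391). Nr3c1 differed by -0.51 (-1.46 to 0.45, adjusted p 0.392), Tsc22d3 by -0.86 (-1.91 to 0.19, adjusted p 0.189), Sgk1 by -0.39 (-1.53 to 0.74, adjusted p 0.579) and Ddit4 by -0.33 (-1.02 to 0.36, adjusted p 0.436). The median over all genes was -0.26.

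Without replicates 4 and 6, a choice made after their values were seen, Zbtb16 was at 4.28 ± 0.14 (SD, n = 4) and rose by 1.38 (interval 0.91 to 1.85, adjusted p 0.000654), while Klf9 was at 3.82 ± 0.58 (SD, n = 4) and rose by 1.48 (interval 0.90 to 2.06, adjusted p 0.00136). In that fit 34.4% of all genes were called, and 11.7% were called and higher. Fkbp5 differed by 0.70 (adjusted p 0.0191, not called), Sgk1 by 0.44, Nr3c1 by 0.20, Ddit4 by -0.09 and Tsc22d3 by -0.10. The signs of the Nr3c1 and Sgk1 differences thus depended on 2 of the 6 irradiated mice.

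Hepatocyte marker levels differed among the 4 other old irradiated mice. Replicates 2, 3 and 5 had levels of 8.39, 8.83 and 9.09, with Klf9 at 3.99, 4.25 and 4.08 and Zbtb16 at 4.24, 4.10 and 4.40. Replicate 1 had a hepatocyte level of 0.20, with Klf9 at 2.96 and Zbtb16 at 4.39. Resident macrophage levels were 4.97, 6.21 and 5.44 in replicates 2, 3 and 5, and 0.36 in replicate 1, against 0.38 to 3.48 in old unirradiated mice. The part of hepatocytes and macrophages in the Klf9 and Zbtb16 differences was not tested. Leaving out the 3 mice over a hepatocyte level of 5 leaves replicates 1, 4 and 6, and so mostly the mice that stood apart. The differences were then -0.35 for Klf9 and 0.16 for Zbtb16. On the 1 slide that holds both old groups (2 mice of each), they were 1.47 for Klf9 and 1.64 for Zbtb16. The irradiated mice on that slide are replicates 1 and 2, so these values again do not include replicates 4 and 6.

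**Figure D3:**
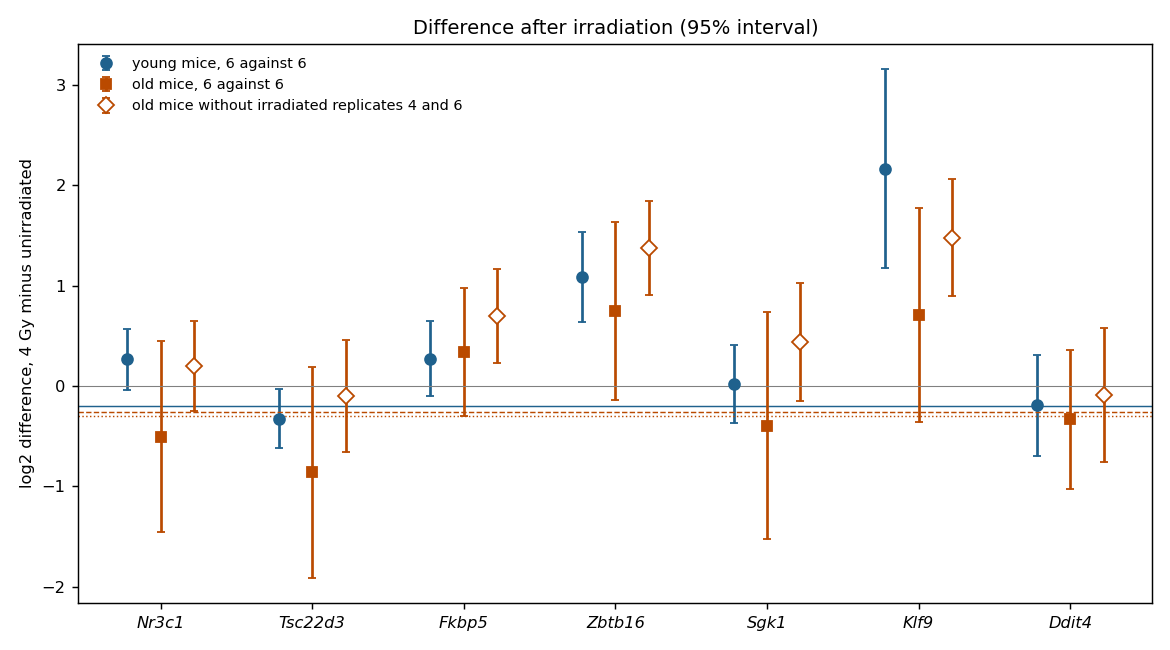
Log2 difference of irradiated minus unirradiated mice for each gene in young mice, old mice, and old mice without replicates 4 and 6, with 95% intervals and the median of all genes as horizontal lines. Zbtb16 and Klf9 lie above 0 in young mice (1.09 and 2.17) and in old mice without the 2 replicates (1.38 and 1.48), and no other member was called in these 3 fits.

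Whether the response differed with age was tested as an interaction over all 24 mice. None of the 6 members was called by limma (0% of all 17805 genes were called), and 1 member, Klf9, had an unadjusted p under 0.05. The old response of Klf9 minus the young one was -1.46 on the log2 scale (interval -2.91 to -0.01, adjusted p 0.209). The other 6 genes had adjusted p of 0.302 to 0.907. Without old irradiated replicates 4 and 6 the Klf9 value was -0.69 (adjusted p 0.602). Without the mice over a hepatocyte level of 5 it was -1.74 (adjusted p 0.0247, called, where 18.2% of all genes were called). The old irradiated mice left in that last fit were replicates 1, 4 and 6, so its call rests largely on the mice that stood apart.

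The next comparison, old against young unirradiated mice, compares the ages without radiation. It shares its mice with the radiation comparisons. The receptor gene and 3 of its targets were higher in old blood: Nr3c1 rose by 1.02 (SE 0.14, interval 0.73 to 1.32, adjusted p 3.63e-05), Tsc22d3 by 0.92 (interval 0.59 to 1.26, adjusted p 0.000171), Sgk1 by 1.08 (interval 0.63 to 1.53, adjusted p 0.000436) and, in the fit without the fold filter, Fkbp5 by 0.63 (interval 0.34 to 0.91, adjusted p 0.000782). These correspond to 2.03-, 1.90-, 2.12- and 1.54-fold, and in all 4 genes every old mouse was above every young one. Among all genes tested, 63.9% were called and 48.6% had groups that did not overlap, in either direction, so these counts are not particular to the members. Zbtb16 (0.60, adjusted p 0.0173), Klf9 (0.67, adjusted p 0.0163) and Ddit4 (0.33, adjusted p 0.257) were not called. With slide as a random block Zbtb16 (0.64, adjusted p 0.00231) and Klf9 (0.72, adjusted p 0.00202) were called, where 72.5% of all genes were called. No slide holds both ages, so this block cannot separate slide from age. Without the 1 mouse over a hepatocyte level of 5 Klf9 was called (0.79, adjusted p 0.00545), where 60.7% of all genes were called. The second Nr3c1 probe differed by 0.83 (adjusted p 0.00857, not called).

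These calls have to be read against a general shift. Under median scaling, 63.9% of all 17805 genes tested were called, 48.5% of all genes being higher in old mice, 48.6% had groups that did not overlap, and the median of all genes was 0.63. In the fit without the fold filter 63.1% were called. Above that median, Sgk1 differed by 0.46, Nr3c1 by 0.39 and Tsc22d3 by 0.30. Fkbp5 (0.02), Klf9 (0.04) and Zbtb16 (-0.03) lay at it, and Ddit4 lay below it (-0.30).

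With 3 other scalings that bring the median of all genes nearer to 0 (-0.00, 0.14 and -0.08), Nr3c1 was called and the other members were not. Nr3c1 and Fkbp5 under all 3, and Ddit4 under the 75th percentile and bright-probe scalings, fall short of the fold filter, so their values come from fits without it. The Nr3c1 probe would not have been tested there with the filter behind the 3 calls under median scaling. Scaled to each array's 75th percentile, where 37.3% of all genes were called and 10.8% were called and higher, the differences were 0.50 for Nr3c1 (adjusted p 0.00141), 0.41 for Tsc22d3 (adjusted p 0.0322) and 0.57 for Sgk1 (adjusted p 0.0243). After quantile normalization, where 17.1% of all genes were called and higher of the 38.3% called, they were 0.39 (adjusted p 0.00998), 0.36 (adjusted p 0.0370) and 0.52 (adjusted p 0.0363). Scaled to the median of probes that were bright on all arrays (7.75% higher of 35.8% called), Nr3c1 differed by 0.44 (adjusted p 0.00345). Ddit4 turned from 0.33 to -0.19, -0.37 and -0.26 under these scalings. In the values the authors deposited (4.45% higher of 25.9% called), none of the 5 members tested (Tsc22d3, Zbtb16, Sgk1, Klf9 and Ddit4) was called. Fkbp5 is absent from those values, and Nr3c1 is held there only by a probe other than its main one, which was not tested. Neither gene was therefore tested there. No member was called either in 1 fit of all 24 arrays, whose shared spread includes old irradiated replicates 4 and 6, where 34.9% of all genes were called. With normexp background correction 0% of all 11803 genes tested were called, so the lack of calls there is not particular to the members. All young arrays belong to 1 scan and all old arrays to another, and no slide holds both ages, so age and scan cannot be told apart.

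**Figure D4:**
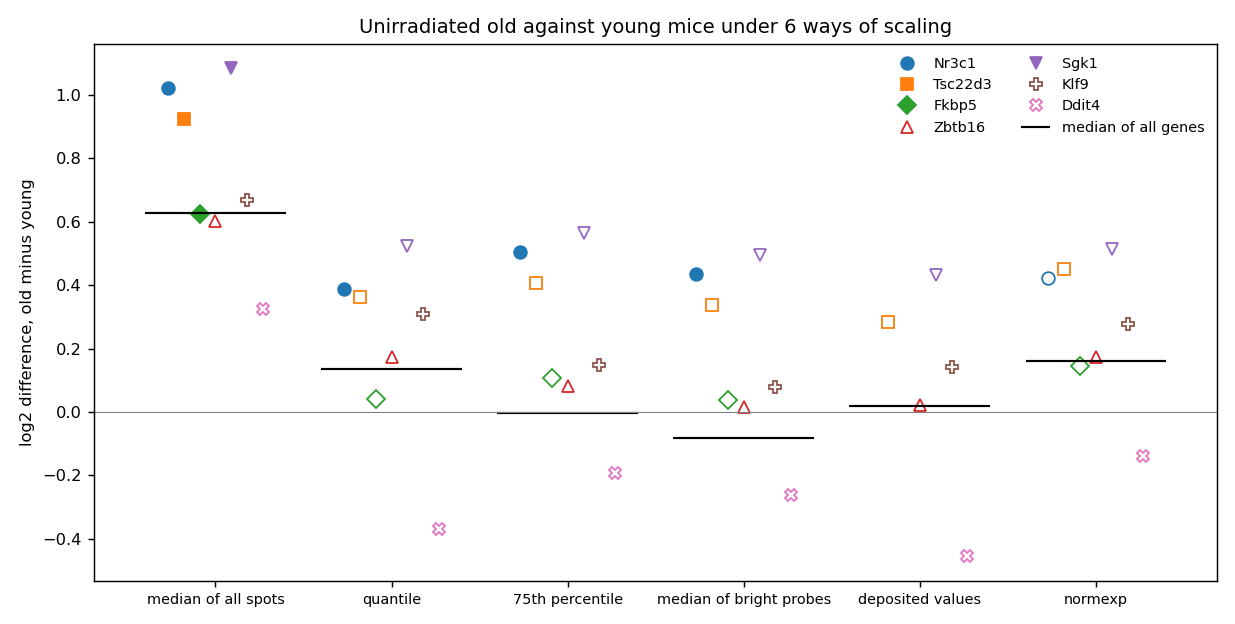
Log2 difference of old minus young unirradiated mice for each gene under the scalings tried, with filled symbols for called genes and the median of all genes as a line. Nr3c1 is called under median (1.02), 75th percentile (0.50), quantile (0.39) and bright-probe median (0.44) scaling, and Ddit4 lies below 0 under all but median scaling.

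Marker levels differed between the unirradiated groups as well. The median level of 12 neutrophil markers was 3.89 in young and 5.38 in old mice, that of 8 platelet markers 8.41 and 9.44, and that of the monocyte markers (9 of 10 on the array) 6.48 and 7.46. B cell (5.88 and 6.44) and natural killer cell (3.80 and 4.53) medians were also higher in old mice. T cell (5.54 and 5.27) and red cell (9.77 and 9.68) medians were lower. These levels are median-scaled, and under that scaling the median of all genes tested was itself 0.63 higher in old mice. In the blood counts of the study, platelets were more numerous in unirradiated old than young mice. The percentage of neutrophils differed between these groups, and that of monocytes was similar. The part of any of these cells in the differences of Nr3c1, Tsc22d3 and Sgk1 was not tested.

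Between old and young irradiated mice, 0 of 6 members were called, against 1.99% of all genes, and 1 of the 7, Fkbp5, had an unadjusted p under 0.05. Sgk1 differed by 0.67 (adjusted p 0.500), Fkbp5 by 0.69 (adjusted p 0.230), Tsc22d3 by 0.39, Zbtb16 by 0.27, Nr3c1 by 0.25 and Ddit4 by 0.19, and Klf9 by -0.79 (adjusted p 0.519). The values of Nr3c1 and Ddit4, among others, turned sign under quantile normalization (-0.11 and -0.31). Without old irradiated replicates 4 and 6, 4 of 6 members were called and higher in old mice, where 28.4% of all genes were called and 20.2% were called and higher: Sgk1 by 1.5 (adjusted p 0.00182), Tsc22d3 by 1.15 (adjusted p 0.00457), Nr3c1 by 0.95 (adjusted p 0.00557) and Zbtb16 by 0.90 (adjusted p 0.00737). Fkbp5 was called as well in the fit without the fold filter (1.05, adjusted p 0.00898), and Klf9 differed by -0.02. The median of all genes was then 0.34, and with 75th percentile scaling, where it was -0.14 and 20.5% of all genes were called, Sgk1 alone was called (1.12, adjusted p 0.00807).

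The genes whose log2 levels most resembled each member over the 24 arrays were found by Pearson's r among 16907 genes. The arrays share the age shift and the 2 outlying mice, so the values are a description. They were Atf2 (r = 0.975), Tbcc (0.975) and Osbpl2 (0.972) for Nr3c1, Arhgef2 (0.971), Wac (0.965) and Pygo2 (0.962) for Tsc22d3, and Pigx (0.971), Zfand2a (0.967) and Fem1c (0.959) for Sgk1. Klf9 most resembled Agmo (0.967), Khk, the ketohexokinase of fructose metabolism (0.957), and Anpep (0.956), while Zbtb16 most resembled Cd44, an adhesion receptor of leukocytes (0.946), Qk (0.940) and Tmbim1 (0.934). Fkbp5 had lower values (Txnl4b 0.888 and Agap1 0.886 among named genes) and Ddit4 the lowest, with Twistnb at 0.698.

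The wider pathway was read from 3 lists: the receptor complex and steroid supply (27 listed, 20 tested), other glucocorticoid-induced genes (45 listed, 40 tested) and inflammatory genes that glucocorticoids repress (30 listed, 20 tested). All listed genes were on the array, and the first list also names Nr3c1 and Fkbp5. In young mice after irradiation, 2 genes of the receptor list rose and 1 fell, 13 induced genes rose and 8 fell, and 3 repressed genes rose and 1 fell, beside 35.4% of all genes called. The list medians were 0.01, 0.28 and 0.25, and that of all genes -0.20.

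In the receptor list, Ncoa1, a coactivator of steroid receptors, rose by 1.31 (adjusted p 0.000643), H6pd, which supplies the cofactor for regeneration of active hormone, rose by 1.42 (adjusted p 0.0117), and Med1, a Mediator subunit, fell by 0.75 (adjusted p 0.000467). The chaperones Hspa8 (0.09) and Hsp90ab1 (0.29) were not called. Among induced genes, the sulfotransferase Sult1a1 rose by 3.55 (adjusted p 0.00486) and the metallothionein Mt1 by 3.10 (adjusted p 0.00550). Il1r2, the decoy receptor of interleukin 1, rose by 1.98 (adjusted p 0.000419). Il7r, the interleukin 7 receptor of T cells, fell by 1.88 (adjusted p 6.30e-05), and Pik3ip1, an inhibitor of PI3 kinase, fell by 1.82 (adjusted p 9.42e-05). Ifit1, an interferon-induced antiviral gene, rose by 2.34 (adjusted p 2.70e-05), Ccl2, a monocyte chemokine, rose by 1.87 (adjusted p 0.000618), and Nos2 fell by 0.84 (adjusted p 0.00117). Without the mice over a hepatocyte level of 5, where 35% of all genes were called, H6pd (0.56), Sult1a1 (2.44) and Mt1 (1.64) were no longer called. In that fit 1 receptor gene rose and 2 fell, 9 induced genes rose and 8 fell, and 8 repressed genes rose. With slide as a block, 0 receptor genes, 6 induced genes (2 higher and 4 lower) and 1 repressed gene were called, where 10.2% of all genes were.

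In old mice after irradiation, 5 receptor genes fell and none rose, 3 induced genes rose and 5 fell, and 2 repressed genes rose, beside 24.9% of all genes called. The medians were -0.74, -0.29 and -0.03, and that of all genes -0.26. Smarca4, the ATPase of a chromatin remodelling complex, fell by 1.46 (adjusted p 0.00781), and Crebbp, a histone acetyltransferase, fell by 1.02 (adjusted p 0.00562). Mt2 rose by 3.25 (adjusted p 0.00263) and Mt1 by 2.61 (adjusted p 0.0103), while Pik3ip1 fell by 2.43 (adjusted p 0.00291) and Foxo1, a transcription factor of B and T cells, by 2.25 (adjusted p 0.000530). Ifit1 rose by 1.98 (adjusted p 0.00177) and Ifng, a cytokine of natural killer and T cells, by 1.61 (adjusted p 0.00517). Without old irradiated replicates 4 and 6, where 34.4% of all genes were called, Mt1 was no longer called (2.52, adjusted p 0.0225). The counts were then 2 higher and 5 lower, 7 and 6, and 3 and 1. Without the mice over a hepatocyte level of 5 (which leaves irradiated replicates 1, 4 and 6) they were 1 and 7, 2 and 7, and 2 and 3, where 40.3% of all genes were called. With slide as a block 0 receptor, 0 induced and 1 repressed gene (Ifit1) were called, where 2.78% of all genes were, and the medians of the induced and repressed lists turned to 0.58 and 0.85.

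In old against young unirradiated mice, 17 receptor genes were called higher and 1 lower, 30 induced genes were higher, and 13 repressed genes were higher and 1 lower, beside the 63.9% of all genes called. The medians of 0.89, 1.07 and 1.15 stood against 0.63 for all genes. Il1r2 rose by 2.74 (adjusted p 0.000114), Crispld2, a secreted protein of neutrophils and airway cells, by 2.32 (adjusted p 0.000213), and Rgs2, a regulator of G protein signalling, by 1.56 (adjusted p 1.19e-05). Il1b, the cytokine interleukin 1 beta, rose by 2.19 (adjusted p 0.000381), Il6 by 2.46 (adjusted p 1.94e-06, well above background in 2 of 6 young and 6 of 6 old mice) and the drug transporter genes Abcb1a and Abcb1b by 1.69 (adjusted p 0.00478) and 1.22 (adjusted p 0.000428). Of the genes of high signal, the chemokine gene Ccl5 differed by 1.62, Irf1, an interferon regulatory factor, by 1.11, the transcription factor Klf6 by 1.07, the co-chaperone gene Ptges3 by 1.02, the chaperone gene Hspa8 by 0.99 and Nfkbia, the inhibitor of NF-kB, by 0.85, all called, and the transcription factor Klf2, also called, differed by 0.58, below the median of all genes. With 75th percentile scaling Irf1 (0.59, adjusted p 0.00401) and Klf6 (0.55, adjusted p 0.00926) were called, and Ccl5 (1.10, adjusted p 0.0354) was not. The genes called lower, Nr3c2 and Fosl1, were not well above background in any old mouse, and no fold is given for them. With 75th percentile scaling the counts were 1 higher and 1 lower of 15, 13 and 2 of 38, and 8 and 2 of 19. Of all genes, 37.3% were called and 10.8% were called and higher with that scaling. Il1r2 (2.22), Crispld2 (1.80), Rgs2 (1.04), Il1b (1.67) and Il6 (1.95) were still called there, while Abcb1a (1.17, adjusted p 0.0429) was not.

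Between old and young irradiated mice, Il7r (2.03, adjusted p 0.0144) and Rela, a subunit of NF-kB (0.89, adjusted p 0.0450), were the only genes of the 3 lists called, both higher in old mice, beside 1.99% of all genes called. Without old irradiated replicates 4 and 6, 4 of 20 receptor, 24 of 40 induced and 9 of 20 repressed genes were called, all higher. In that fit 28.4% of all genes were called and 20.2% were called and higher. No gene of the 3 lists was called in the interaction over all 24 mice (0% of all genes). Without old irradiated replicates 4 and 6, 1 receptor gene was called lower (0.152% of all genes called). Without the mice over a hepatocyte level of 5, 3 receptor and 4 induced genes were called lower, and 1 repressed gene was higher and 1 lower, where 18.2% of all genes were called. The old irradiated mice of that fit were replicates 1, 4 and 6.

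**Figure D5:**
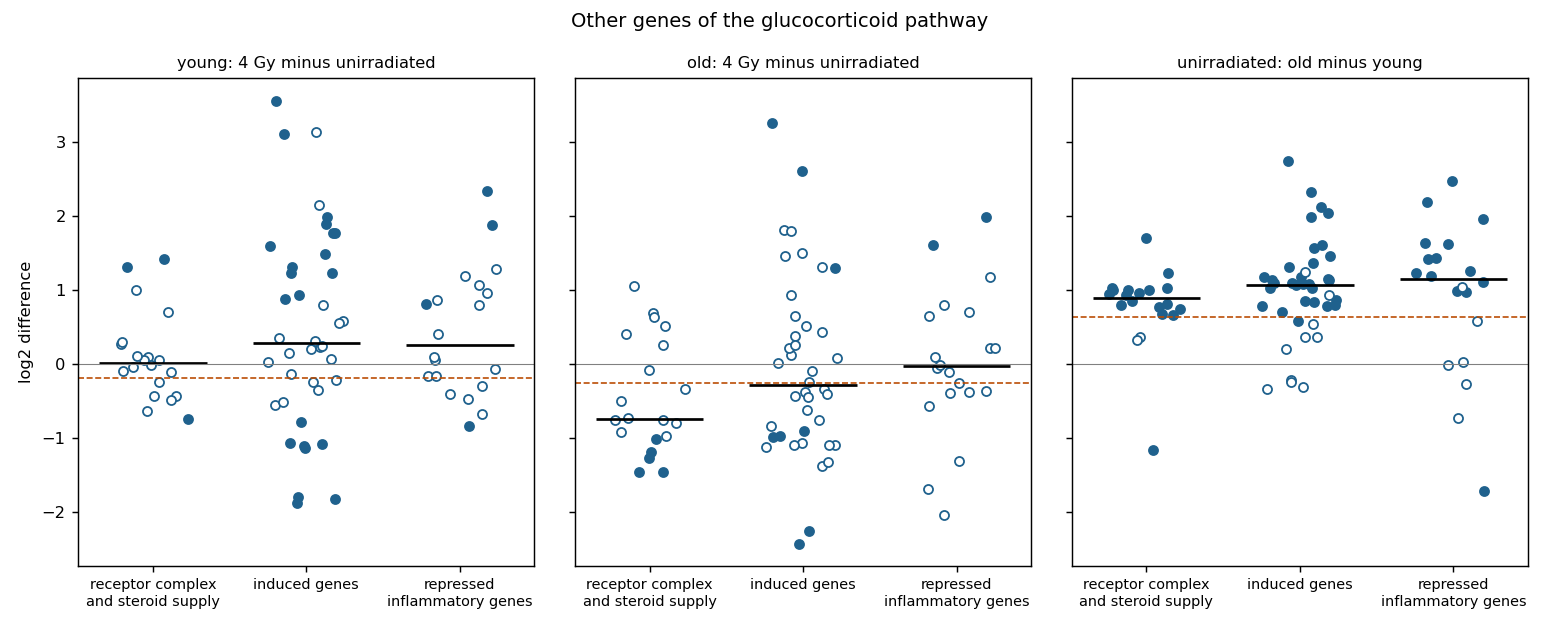
Log2 differences of every tested gene of the 3 lists in young mice after irradiation, old mice after irradiation and old against young unirradiated mice, with filled points for called genes, a black line for the list median and a dashed line for the median of all genes. The list medians in the age comparison (0.89, 1.07 and 1.15) lie above that of all genes (0.63).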

How the data were processed

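RNA of 24 mice (6 per group, 1 mouse per array) was hybridised to Agilent 1-colour whole mouse genome arrays. Per the deposited file headers, the authors scanned 6 slides of 4 arrays and extracted intensity values with Agilent Feature Extraction (version 12.0.2, probe positions in mm9). The deposited table of log2 values is the authors' own median-normalized, filtered data and was used as an alternative only.

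The deposited intensity (background-subtracted processed signal) was put on the log2 scale and the array median over spots that are not controls was subtracted. Repeat spots were averaged. After the study's methods, probes flagged as non-uniform or not significantly above background on 25% or more of the arrays were left out, and probes had to be 1.5-fold from their median in 20% of arrays (5 arrays). With 1 probe per gene (the brightest that passed), 17805 genes were tested by limma 3.58.1 in R 4.3.3, with Benjamini-Hochberg adjustment over all of them. A call needs p under 0.005 and adjusted p under 0.05. The scripts were tested on simulated data. The number of arrays limits the precision.

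The members and lists were chosen with earlier results of these data known. All 7 members are named, and of each list the 4 genes of highest mean signal and up to 2 called genes per direction and comparison are named. The values of 1 such gene are not reported here. The check of replicate numbers found no pairing (correlations of -0.597 to 0.582). Alternatives were other scalings, background correction, filters, slide as a block, replicate number as a block, and leaving out mice. Those that changed a call are given beside the result or in the closing section.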

Additional observations from a re-analysis of the deposited data

How the results depend on the processing

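The number of members called differed between settings as follows; the cause was not tested. In young irradiation it was 2 (35.4% of all genes called), 1 with normexp background correction (7.09%) and 0 with slide as a block (10.2%). In old irradiation it was 0 (24.9% of all genes called), and 2 without old irradiated replicates 4 and 6, with either scaling (34.4% with median scaling). For age in unirradiated mice it was 3 (63.9% of all genes called), 4 without the fold filter, with Fkbp5 (63.1%), and 5 with slide as a random block (72.5%). It was 1 with 75th percentile scaling (37.3%), quantile normalization (38.3%) or the median of bright probes (35.8%). This was Nr3c1, from fits without the fold filter, which its probe does not pass there. It was 0 with normexp (0% of all genes called), the deposited values (25.9%, Nr3c1 not tested) or 1 fit of all 24 arrays (34.9%). For age in irradiated mice it was 0 (1.99% of all genes called), and 4 without old irradiated replicates 4 and 6 (28.4%). With 75th percentile scaling as well it was 1 (20.5%). In the interaction it was 0 (0% of all genes called), and 1 without the mice of high hepatocyte level (18.2%), a fit in which the old irradiated mice are replicates 1, 4 and 6. Leaving out 1 mouse at a time gave 2 in young irradiation, 0 in old irradiation, 3 to 4 for age in unirradiated mice, and 0 for age in irradiated mice and for the interaction.

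Log2 differences that changed sign were mostly small. With 75th percentile scaling these were Ddit4 for age in unirradiated (-0.19) and irradiated mice (-0.039) and in the interaction (0.15). With quantile normalization they were Sgk1 in young irradiation (-0.018), Ddit4 for age in unirradiated mice (-0.37), Nr3c1 (-0.11) and Ddit4 (-0.31) for age in irradiated mice, and Ddit4 in the interaction (0.058). With the median of bright probes they were Ddit4 in old irradiation (0.013) and for age in unirradiated mice (-0.26), Nr3c1 (-0.020), Zbtb16 (-0.0019) and Ddit4 (-0.086) for age in irradiated mice, and Ddit4 in the interaction (0.18). With normexp they were Tsc22d3 (0.28) and Ddit4 (0.30) in young irradiation, Nr3c1 (0.19), Sgk1 (0.29) and Ddit4 (0.26) in old irradiation, Ddit4 for age in unirradiated mice (-0.14), and Nr3c1 (-0.056), Tsc22d3 (-0.035) and Ddit4 (-0.18) for age in irradiated mice. In the deposited values they were Sgk1 in young irradiation (-0.11), Ddit4 for age in unirradiated mice (-0.46), Tsc22d3 (-0.0048) and Ddit4 (-0.30) for age in irradiated mice, and Ddit4 in the interaction (0.16). With slide as a block they were Fkbp5 (-0.12) and Sgk1 (-0.079) in young irradiation, and Nr3c1 (0.11), Tsc22d3 (0.31), Sgk1 (0.60) and Ddit4 (0.59) in old irradiation. The second Nr3c1 probe gave -0.088 for age in irradiated mice.

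Some signs also changed with the mice included. Without those of high hepatocyte level (which leaves old irradiated replicates 1, 4 and 6) they were Sgk1 in young irradiation (-0.13), Fkbp5 (-0.0017) and Klf9 (-0.35) in old irradiation, Nr3c1 (-0.29), Tsc22d3 (-0.30), Zbtb16 (-0.58) and Ddit4 (-0.054) for age in irradiated mice, and Fkbp5 in the interaction (-0.22). Without old irradiated replicates 4 and 6 they were Nr3c1 (0.20) and Sgk1 (0.44) in old irradiation, and Tsc22d3 (0.23), Zbtb16 (0.30), Sgk1 (0.42) and Ddit4 (0.10) in the interaction. With 75th percentile scaling as well, they were Nr3c1 (0.34), Tsc22d3 (0.042), Sgk1 (0.58) and Ddit4 (0.050) in old irradiation, and Nr3c1 (0.064), Tsc22d3 (0.36), Zbtb16 (0.43), Sgk1 (0.55) and Ddit4 (0.24) in the interaction. Leaving out 1 mouse moved Sgk1 in young irradiation between -0.070 and 0.13, and Fkbp5 in the interaction between -0.12 and 0.25. Leaving out replicates 4 and 6 of the old irradiated mice and the mice of high hepatocyte level, averaging very alike arrays, fitting Fkbp5 without the fold filter and following 1 probe per gene through all scalings were chosen after seeing the data.

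Replicate numbers are shared between groups, but same-numbered mice did not deviate together (correlations of -0.597 to 0.582, and at most 3 of 6 correlated best with their own number). With the replicate number as a block, 2 members were called in young irradiation, 0 in old irradiation, 3 for age in unirradiated mice, 0 for age in irradiated mice and 0 in the interaction, as without it. Averaging the very alike arrays changed none of these counts. The second Nr3c1 probe was not well above background in 2 of the 24 mice, and the other 7 probes were well above it in all.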

Other observations

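Over the 24 arrays, the log2 levels of Nr3c1, Tsc22d3 and Sgk1 varied together, with Pearson's r of 0.93 for Nr3c1 with Sgk1, 0.90 for Nr3c1 with Tsc22d3 and 0.89 for Tsc22d3 with Sgk1. Fkbp5 had an r of 0.75 with Sgk1. Klf9 had an r of 0.08 with Tsc22d3 and of -0.05 with Ddit4. The arrays share the age difference, the scaling and the low values of old irradiated replicates 4 and 6, so these are descriptions.

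Markers of endothelium (11 of 11 on the array) had median levels of 2.12 in young unirradiated and 3.15 in young irradiated mice, and of 2.18 in old unirradiated and 3.42 in old irradiated mice. Platelet markers had a median level of 11.3 in old irradiated mice, and B cell markers of 2.80 in old irradiated against 6.44 in old unirradiated mice.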
